A study of Mus musculus with 23 samples.

Results

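The Fos and Jun genes encode the subunits of AP-1, a transcription factor built from pairs of basic leucine zipper proteins. The members described here are Fos, Fosb, Fosl2, Jun, Junb and Jund, chosen by name with earlier results of these data known. They were 6 of the 24985 gene symbols in each count table. Their RNA was followed through 23 libraries in 7 groups. All 6 passed the filter on low counts in both tables.

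RNA came from the hippocampus of mice of the C57BL6/J strain. In KO mice exons 3 to 7 of Acss2, which encodes an enzyme that makes acetyl-CoA from acetate, had been removed in the embryo, so that every cell and every age lacked it. Dorsal hippocampus was taken as a slice 1 mm thick in 4 groups, namely KO mice after fear conditioning (4 libraries), WT mice after fear conditioning (3), KO mice from the home cage (5) and WT mice from the home cage (5). Fear conditioning paired a context with 1 shock, and these mice were killed 30 min later. Whole hippocampus, dissected freehand at baseline, gave 2 libraries each of KO, heterozygous (Het) and WT mice. Ages and the number of mice behind a library are not given in the sources used here. Dorsal libraries carry batch labels B1, B2 and B3. Each WT fear library was B1, KO fear libraries were B1 and B3, KO home-cage libraries were B2 and B3, and WT home-cage libraries were B1 and B2.

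Fos proteins bind DNA only when paired with a Jun protein, whereas Jun proteins can also pair with each other. Fos, Fosb and Junb are immediate early genes: calcium entry and MAP kinase signalling in active neurons switch them on through factors already present in the cell, such as CREB and SRF, and their RNA is short-lived. Jund is made steadily in most cells and is often described as a restraint on growth, and Fosl2 is a slower and longer-lasting Fos relative. In the hippocampus, Fos RNA is widely used to mark recently active neurons.

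At 30 min after conditioning, 3 members rose in WT dorsal hippocampus: Fos 5.83-fold, Fosb 3.99-fold and Junb 2.85-fold. Of all genes tested there, 0.871% were called higher. In KO mice no member passed the test against the KO home cage, nor did any other of the 14808 genes tested. Fos had the largest estimate of the members there, at 2.43-fold, and passed within batch B3 and by DESeq2. Fear-conditioned KO mice had less Jun, Fosb and Fosl2 RNA than fear-conditioned WT mice, where 12.1% of genes were called lower. The response of Junb to conditioning was smaller in KO mice than in WT mice by 1.15 ± 0.22 on the log2 scale, where 0.479% of genes passed. The calls between KO fear and WT fear and the call for the Junb responses were lost without a batch term and without some single libraries. With the WT fear and WT home-cage libraries alone, Fos and Fosb did not pass. No member passed the test between genotypes in the home cage or in whole hippocampus, where at most 0.0841% of genes did.

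The libraries held 7142143 to 19136156 reads assigned to genes in KO fear, 5362773 to 9109104 in WT fear, 14054430 to 23412644 in KO mice from the home cage, 7790467 to 22388429 in WT mice from the home cage and 18814460 to 27293661 in whole hippocampus. B1 libraries were the shallowest, at up to 9109104 reads. Acss2 lay at 3.87 to 6.04 CPM in dorsal KO libraries, against 56.2 to 71.3 CPM in dorsal WT libraries. In whole hippocampus it was at 6.73 and 7.02 CPM in KO, 31.2 and 34.3 CPM in the Het libraries and 60.9 and 60.3 CPM in WT. The Y-linked gene Ddx3y was at 89.6 and 101 CPM in whole KO libraries, against 0.11 and 0.19 CPM in Het and no reads in WT, so sex and the KO genotype cannot be told apart in whole hippocampus. Ddx3y reads were present in every dorsal library, at 70.5 to 120.1 CPM. CPM here are read counts scaled to the size of the library, with TMM-scaled library sizes, and each tissue was scaled separately. Neuron markers, 7 of 7 with reads in every group, summed to 8604.54 to 11504.16 CPM in KO fear, 10665.01 to 12075.78 in WT fear, 10534.11 to 14772.36 in KO mice from the home cage and 11699.24 to 13931.81 in WT home cage. Because the tissue was bulk, fewer cells of a type and less RNA per cell cannot be told apart.

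Divided by exonic length, the 6 genes kept much the same order in all groups. Jund had the highest level per kb in every group, with a median of 71.4 CPM per kb in KO fear, 59.9 in WT fear, 82.1 in KO home cage and 69.7 in WT home cage. Jun and Junb came next, at medians of 31.3 and 37.2 CPM per kb in KO fear, 42.0 and 39.6 in WT fear, 31.2 and 30.2 in KO home cage and 32.9 and 15.7 in WT home cage. Their ranges met in the first 3 of those groups, and in WT home cage all 5 Junb values lay below all 5 Jun values. Fos and Fosl2 were lower: Fos had medians of 11.9, 9.93, 5.70 and 1.83 CPM per kb in the same 4 groups, and Fosl2 had 3.13, 4.80, 2.98 and 2.14. Fosb was lowest in every group, at medians of 1.5, 2.00, 1.1 and 0.62 CPM per kb. Fosl2 ranked above Fos in WT home cage, and below it in the other 6 groups. In whole hippocampus the order was Jund, Jun, Junb, Fos, Fosl2 and Fosb in KO and in WT, while Junb stood above Jun in Het.

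In dorsal hippocampus, the joint share of Fos, Fosb and Fosl2 within the family set the fear libraries apart from the home-cage ones of each genotype. Of the summed CPM per kb of the 6 genes, Jund made up 40.2% to 51.5% in KO fear libraries and 49.2% to 59.5% in KO home-cage libraries, which overlapped. It made up 37.2% to 42.2% in WT fear libraries and 53.8% to 60.2% in WT home-cage libraries, which did not. Fos, Fosb and Fosl2 together made up 9.33% to 11.9% in KO fear libraries, against 4.68% to 6.63% in KO home-cage libraries, and 8.59% to 14.3% in WT fear libraries, against 3.37% to 4.68% in WT home-cage libraries. That share was higher in every fear library than in every home-cage library of its genotype. In whole hippocampus at baseline it was 10.5% in each KO library, 9.26% and 16.7% in the Het libraries and 11.5% and 11.4% in WT. Shares as high as those after fear thus also occurred without conditioning. Jund made up 44.7% to 50.9% in the whole hippocampus libraries. The sum itself was 105.5 to 185 CPM per kb in KO fear libraries, against 138 to 171 in KO home-cage libraries. It was 142 to 187 CPM per kb in WT fear libraries, against 110.1 to 135 in WT home-cage libraries.

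**Figure D1:**
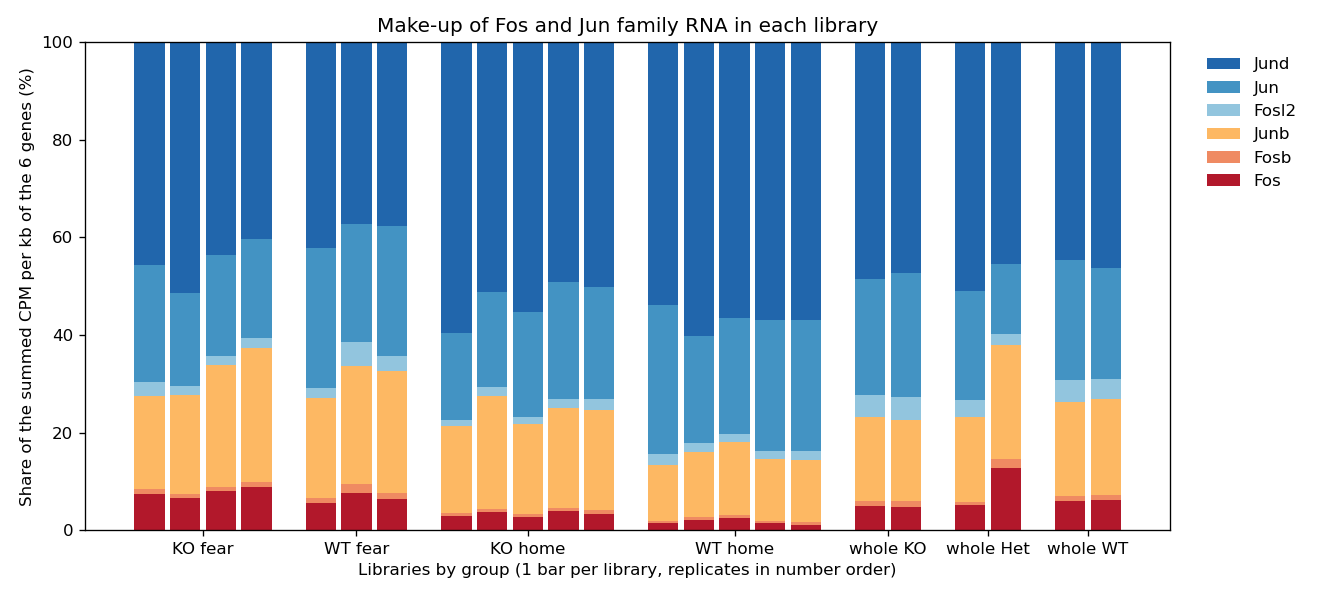
Share of each gene in the summed CPM per kb of the 6 Fos and Jun genes, 1 stacked bar per library, grouped by tissue, genotype and treatment. Jund fills 37.2% to 42.2% of the bar in WT fear libraries and 53.8% to 60.2% in WT home-cage libraries.

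The promoters of the 3 genes that rose, and of Jun, are shown because CREB-type and AP-1-type sites in them are a textbook route of their induction. All 6 members had a promoter window in RefSeq (build GRCm38.p6), 250 bases before to 50 bases after the RefSeq start, and each window is written 5′ to 3′ on the gene's own strand. Capitals mark matches to TGACG, the core of the cAMP response element, to TGACATCA, the AP-1-type site of Jun, and to the box motif TATAAA. Fos lies at chr12:85473640-85473939 on the plus strand, Fosb at chr7:19309996-19310295 on the minus strand, Junb at chr8:84978699-84978998 on the minus strand and Jun at chr4:95052173-95052472 on the minus strand.
Fos: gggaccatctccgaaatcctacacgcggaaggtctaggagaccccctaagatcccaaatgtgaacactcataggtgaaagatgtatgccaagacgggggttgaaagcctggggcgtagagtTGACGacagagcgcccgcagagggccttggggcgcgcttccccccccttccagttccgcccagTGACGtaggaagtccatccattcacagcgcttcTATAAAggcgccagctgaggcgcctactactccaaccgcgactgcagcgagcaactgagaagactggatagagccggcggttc
Fosb: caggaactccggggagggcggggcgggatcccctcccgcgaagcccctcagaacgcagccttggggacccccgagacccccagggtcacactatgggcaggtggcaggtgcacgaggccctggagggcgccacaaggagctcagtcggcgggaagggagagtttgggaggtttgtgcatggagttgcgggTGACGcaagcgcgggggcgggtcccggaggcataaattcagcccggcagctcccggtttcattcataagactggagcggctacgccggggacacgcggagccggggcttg
Junb: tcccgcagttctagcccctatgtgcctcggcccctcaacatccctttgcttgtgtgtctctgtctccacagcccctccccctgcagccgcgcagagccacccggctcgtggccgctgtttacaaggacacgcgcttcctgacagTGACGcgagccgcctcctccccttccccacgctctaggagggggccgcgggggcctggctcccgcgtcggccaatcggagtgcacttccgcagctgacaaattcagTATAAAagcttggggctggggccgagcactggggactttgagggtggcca
Jun: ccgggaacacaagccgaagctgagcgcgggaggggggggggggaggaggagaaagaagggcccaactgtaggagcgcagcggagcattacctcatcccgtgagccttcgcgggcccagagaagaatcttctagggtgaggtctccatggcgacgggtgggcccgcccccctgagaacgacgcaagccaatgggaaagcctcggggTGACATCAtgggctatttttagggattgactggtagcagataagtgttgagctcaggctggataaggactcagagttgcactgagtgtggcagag

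Counting the RefSeq start as 1 and the base before it as -1, Fos had TGACG at -129 to -125 and at -66 to -62 and TATAAA at -33 to -28. Fosb had TGACG at -60 to -56, and Junb had it at -106 to -102. Junb also held TATAAA at 1 to 6, and the GENCODE start of Junb lies 30 bases downstream of the RefSeq start. Jun had TGACATCA at -45 to -38. Searched on both strands of all 32851 RefSeq windows of 300 bases, TGACG occurred in 20.8%, TATAAA in 13.6% and TGACATCA in 3.62%. The full response element TGACGTCA (1.79% of windows, always holding TGACG), the site TGACTCA (5.20%) and the CArG box bound by SRF (1.63%) were in none of the 6 member windows. The Fosl2 and Jund windows held none of these motifs. Bases more than 250 before a RefSeq start were not searched, so a motif there would have been missed. The GENCODE start of Jund lies 1210 bases downstream of the RefSeq start, and that of Fosl2 lies upstream of it.

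Fos encodes the founding Fos protein and lies on chromosome 12 at 85473890 to 85477273, with 2352 exonic bases (mm10, GENCODE M21). In dorsal hippocampus it was at 18.4, 21.2, 34.7 and 36.5 CPM in KO fear, 18.3, 33.3 and 23.4 CPM in WT fear, 9.45, 13.7, 8.79, 13.4 and 13.4 CPM in KO home cage, and 4.04, 5.52, 7.71, 4.31 and 3.11 CPM in WT home cage. Every fear library lay above every home-cage library of its genotype, every KO home-cage library lay above every WT home-cage library, and the KO fear and WT fear ranges overlapped. The KO fear libraries of B3 had more than those of B1. In WT mice the log2 difference of fear from home cage was 2.54 ± 0.31 (SE, edgeR adjusted p = 0.00151), and it passed with each of the 17 libraries left out in turn. With the WT fear and WT home-cage libraries alone it was 2.41 ± 0.40 and did not pass (edgeR adjusted p = 0.0569). In KO mice it was 1.28 ± 0.25, with an interval of 0.79 to 1.78, and Fos ranked 2 of 14808 genes by p without passing (edgeR adjusted p = 0.404). Within B3, the batch with 2 KO fear and 2 KO home-cage libraries, that difference was 1.40 ± 0.11 and passed (edgeR adjusted p = 0.0265).

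KO home cage exceeded WT home cage in Fos by 0.99 ± 0.23, a 1.98-fold estimate that did not pass (edgeR adjusted p = 0.440). It passed without KO home-cage library 3, at an edgeR adjusted p of 0.0406, and that was the only library whose removal did so. KO fear and WT fear differed in Fos by -0.28, with an interval of -0.82 to 0.27. The KO response to conditioning minus the WT response was -1.26 ± 0.32 (edgeR adjusted p = 0.0661).

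Fosb encodes a Fos relative whose truncated splice form is known to build up with repeated stimulation. It lies on chromosome 7 at 19302696 to 19310051 and was counted over all its transcripts, so its splice forms were not separated. It was at 6.15, 8.67, 10 and 12.4 CPM in KO fear, 9.23, 21.9 and 12.5 CPM in WT fear, 4.82, 7.10, 5.06, 6.84 and 8.61 CPM in KO home cage, and 3.48, 3.89, 5.33, 3.53 and 3.88 CPM in WT home cage. The WT fear and WT home-cage libraries did not overlap, the other pairs of groups compared did, and WT fear library 2 was the highest of the 17. Fosb rose in WT fear by 2.00 ± 0.30 (edgeR adjusted p = 0.00766). That call was lost without WT home-cage library 2 (edgeR adjusted p = 0.0664), and within B1 the difference was 2.02 ± 0.37 (edgeR adjusted p = 0.103). With the compared groups alone it was 2.01 ± 0.37 and did not pass (edgeR adjusted p = 0.0646).

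In KO mice the Fosb difference of fear from home cage was 0.55, with an interval of 0.06 to 1.05 (edgeR adjusted p = 0.968). Fosb fell in KO fear relative to WT fear by 1.01 on the log2 scale (SE 0.28, edgeR adjusted p = 0.0240), and within B1 the difference was -0.98 ± 0.33 (edgeR adjusted p = 0.0558). It was -0.57 without WT fear library 2 and -0.64 without a batch term, and passed in neither (edgeR adjusted p = 0.149 and 0.119). KO home cage and WT home cage differed by 0.43, with an interval of -0.02 to 0.88. The KO response minus the WT response was -1.44 ± 0.33 (edgeR adjusted p = 0.0521).

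Fosl2 encodes Fra-2, a Fos relative that lacks the strong activation domain of Fos, and lies on chromosome 5 at 32135801 to 32157842. It was at 29.0, 24.7, 31.7 and 35.3 CPM in KO fear, 28.6, 88.7 and 46.5 CPM in WT fear, 16.1, 28.9, 19.7, 29.4 and 36.3 CPM in KO home cage, and 26.5, 19.6, 20.4, 20.7 and 22.3 CPM in WT home cage. WT fear library 2 stood far above the other libraries, all WT fear libraries lay above all WT home-cage libraries, and WT fear library 1 lay within the KO fear range. In Fosl2 the WT fear difference of 1.23 ± 0.31 did not pass (edgeR adjusted p = 0.0521). It was 0.68 to 1.54 when each library was left out in turn, and it passed in 4 of 17 of those fits. Fosl2 fell in KO fear relative to WT fear by 1.08 (SE 0.30, edgeR adjusted p = 0.0236), and within B1 the difference was -1.03 ± 0.34 (edgeR adjusted p = 0.0562). Without WT fear library 2, the library with the highest Fosl2, it was -0.54 and did not pass (edgeR adjusted p = 0.151). The differences of KO fear from KO home cage and of KO home cage from WT home cage were 0.08 and 0.07, with intervals of -0.45 to 0.61 and -0.41 to 0.54.

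Jun encodes the founding Jun protein, which pairs with any Fos protein or with itself. Its gene, on chromosome 4 at 95049034 to 95052222, is a single exon, and 7.28% of its exonic bases are also covered by the antisense gene Junos, which was not analysed here. Jun was at 80.6, 84.2, 122 and 115 CPM in KO fear, 129.5, 145 and 134 CPM in WT fear, 79.3, 99.5, 94.5, 113 and 126 CPM in KO home cage, and 121, 77.4, 101, 116 and 105 CPM in WT home cage. All 3 WT fear libraries lay above all 4 KO fear libraries and above all 5 WT home-cage libraries, and the other pairs of groups compared overlapped. Jun fell in KO fear relative to WT fear by 0.72 (SE 0.14, edgeR adjusted p = 0.0155), and within B1 the difference was -0.71 ± 0.15 and passed (edgeR adjusted p = 0.0119). Without a batch term it was -0.43 and did not pass (edgeR adjusted p = 0.0965). The WT fear difference from home cage was 0.46 ± 0.14 (edgeR adjusted p = 0.0819). The KO fear difference from home cage was -0.02, with an interval of -0.26 to 0.23. KO home cage differed from WT home cage by -0.24, with an interval of -0.46 to -0.02, and did not pass (edgeR adjusted p = 0.440).

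Junb encodes a Jun protein that activates more weakly than Jun and is induced along with Fos. It lies on chromosome 8 at 84974484 to 84978718. It was at 46.6, 64.4, 107 and 112 CPM in KO fear, 67.2, 104 and 91.0 CPM in WT fear, 56.6, 85.6, 58.1, 69.5 and 80.5 CPM in KO home cage, and 32.8, 33.5, 46.2, 39.7 and 36.2 CPM in WT home cage. WT home-cage libraries lay below all WT fear and all KO home-cage libraries. The KO fear libraries split by batch, with B1 within or below the range of KO home cage and B3 above it. Junb rose in WT fear by 1.51 ± 0.20 (edgeR adjusted p = 0.00204), and this passed with each of the 17 libraries left out in turn. Within B1 it was 1.42 ± 0.19 (edgeR adjusted p = 0.0510).

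In KO mice the Junb difference of fear from home cage was 0.36 and did not pass (edgeR adjusted p = 0.968). Its interval of 0.02 to 0.71 left out 0, though the edgeR p before adjustment was 0.0543. Within B3 the difference was 0.54 ± 0.10 (edgeR adjusted p = 0.870). KO home cage exceeded WT home cage by 0.59 ± 0.16, which did not pass (edgeR adjusted p = 0.440) except without KO home-cage library 3 (edgeR adjusted p = 0.0443). KO fear and WT fear differed by -0.56 ± 0.20 (edgeR adjusted p = 0.0526), and within B1 by -0.65 ± 0.20 (edgeR adjusted p = 0.0451). That difference ran from -0.73 to -0.35 with a library left out and was -0.077 without a batch term (edgeR adjusted p = 0.856). The KO response minus the WT response was -1.15 ± 0.22 and passed (edgeR adjusted p = 0.0420). When 1 library was removed at a time, it passed 4 times in 17, with estimates of -1.33 to -1.0. No batch held all 4 groups, so no within-batch value exists for it, and it did not pass without a batch term (edgeR adjusted p = 0.255) or with the replicate block (edgeR adjusted p = 0.0747).

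Reads of Junb and of the antisense gene Prdx2, a peroxiredoxin, share 173 exonic bases, 7.52% of those of Junb, and the library kit does not mark strand. Prdx2 was at 206 to 311 CPM in KO fear, 159.6 to 186 CPM in WT fear, 211 to 313 CPM in KO home cage and 174 to 236 CPM in WT home cage. It differed between KO fear and WT fear by 0.59 ± 0.16 (edgeR adjusted p = 0.0209), opposite in sign to Junb. In WT fear it differed from WT home cage by -0.19 ± 0.16 (edgeR adjusted p = 0.498).

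Jund encodes the steadily made Jun protein and lies on chromosome 8 at 70698949 to 70700616. The antisense gene Gm11175, not analysed here, covers 52.6% of its exonic bases. Jund was at 80.4, 119, 134 and 119 CPM in KO fear, 100, 116 and 99.1 CPM in WT fear, 137, 137, 127, 122 and 143 CPM in KO home cage, and 111, 111, 126, 128 and 116 CPM in WT home cage. KO fear library 1 was the lowest of the 17, and every pair of groups compared overlapped. The log2 differences were -0.04 for WT fear against home cage, with an interval of -0.29 to 0.22, and -0.14 for KO fear against home cage, with an interval of -0.37 to 0.10. They were -0.04 for KO fear against WT fear, with an interval of -0.30 to 0.22, and 0.07 for KO home cage against WT home cage, with an interval of -0.14 to 0.27.

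**Figure D2:**
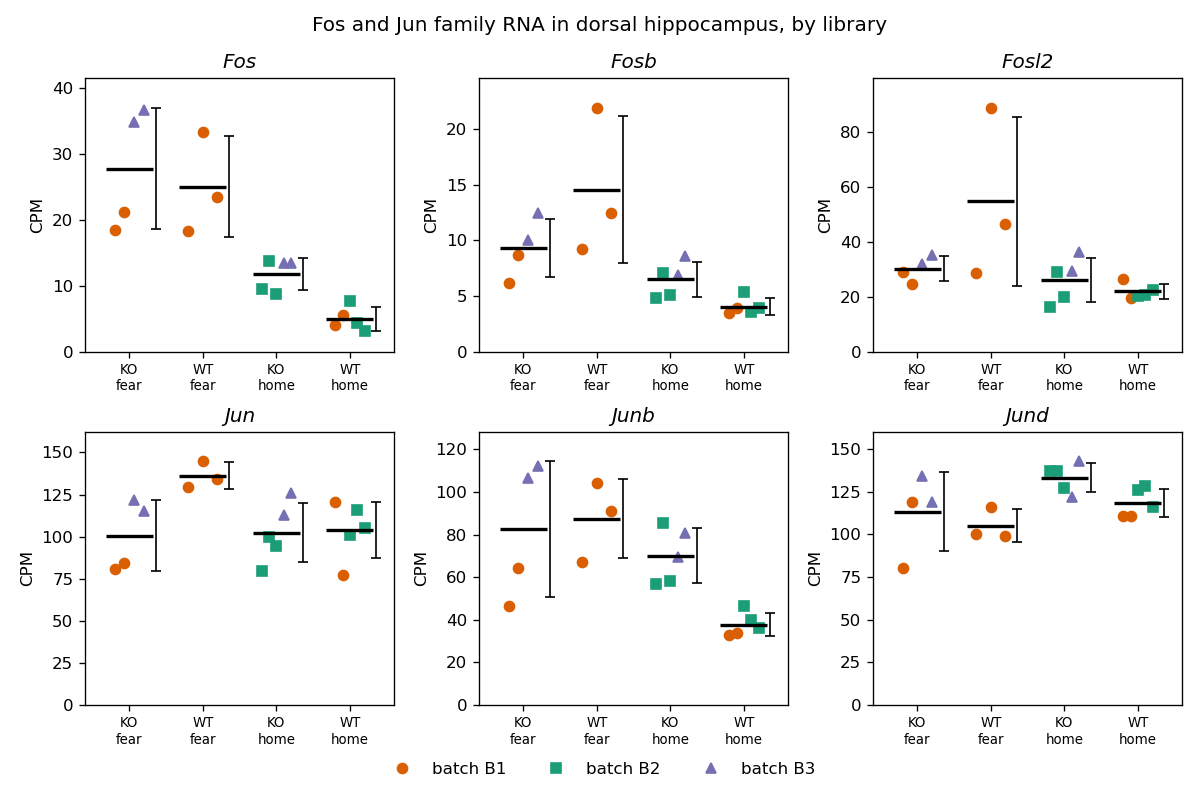
CPM of the 6 genes in the 17 dorsal libraries, 1 point per library, coloured and shaped by batch; lines are group means and bars are 1 SD. Fos, Fosb and Junb are lowest in WT home cage, where Fos lies between 3.11 and 7.71 CPM, against 18.3 to 33.3 CPM in WT fear.

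Set against all genes, the count of members called in WT fear against WT home cage was 3 of 6, with all 3 higher, where 1.63% of the 14808 genes tested were called and 0.871% were called higher. The groups did not overlap, with WT fear higher, for 5 of 6 members and for 7.70% of genes. The median log2 difference was 1.37 over the members and -0.02 over all genes. Within B1, with 3 WT fear and 2 WT home-cage libraries, only Fos passed, at 2.42 ± 0.29 (edgeR adjusted p = 0.0404), and 5 genes in all passed.

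In KO fear against KO home cage, 0 of 6 members and 0% of genes passed, 0 of 14808. Before adjustment the edgeR p was under 0.05 for 714 genes. DESeq2 called 6 genes, Fos among them. The median was 0.22 over the members and -0.0017 over all genes, and Fos alone did not overlap between groups, against 2.33% of genes higher without overlap.

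In KO home cage against WT home cage, 0 of 6 members passed, where 0.00675% of genes did, that is Acss2 alone. Without KO home-cage library 3 the genes called were 585 and the members called were 2, Fos and Junb. Before adjustment the edgeR p was under 0.05 for 1674 genes. DESeq2 called 2 genes, with no member among them. Fos and Junb were higher without overlap, 2 of 6 members, against 1.71% of genes. The median was 0.25 over the members and -0.02 over all genes.

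In KO fear against WT fear, 3 of 6 members were called, all lower, where 22.3% of genes were called and 12.1% were called lower. Jun alone did not overlap between groups, 1 of 6 members, against 10.6% of genes lower without overlap. The median was -0.64 over the members and 0.01 over all genes. This comparison leaned on few libraries: without WT fear library 2, WT fear library 3 or KO fear library 2 no member passed, and the genes called in all fell to 2, 1 and 1, against 3298 with every library. Without a batch term no member passed either. For the difference between the KO and WT responses, 1 of 6 members passed, where 0.479% of genes did, and the median was -1.15 over the members and 0.03 over all genes. These comparisons share libraries, so their members' values are not independent of each other.

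**Figure D3:**
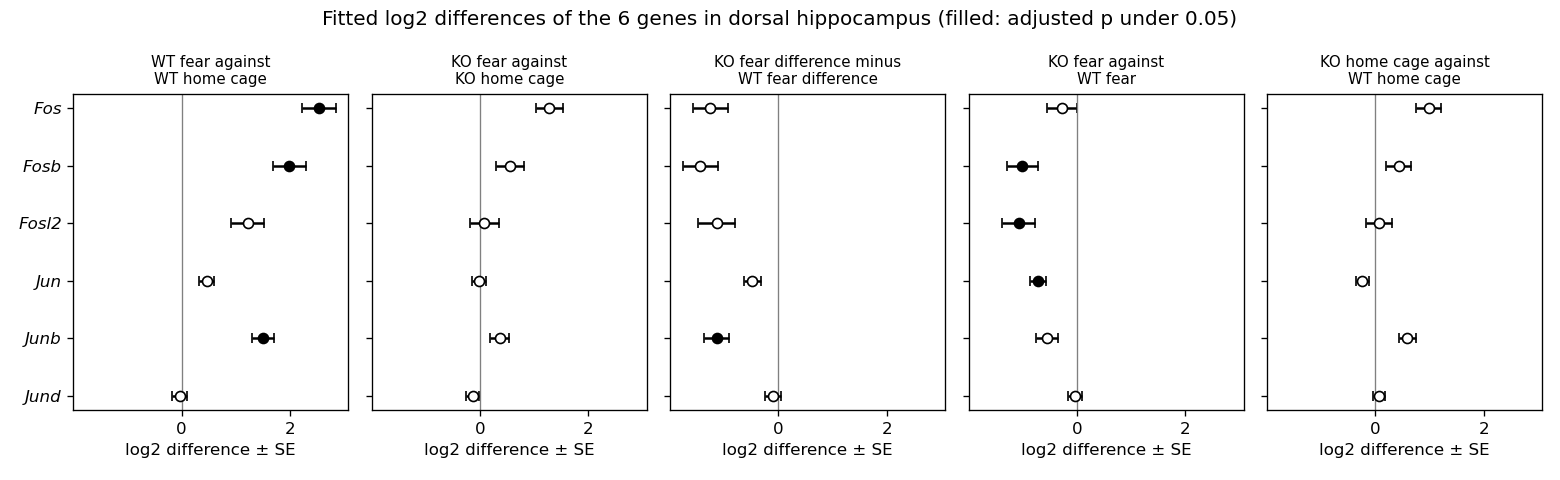
Log2 differences of the 6 genes in 5 dorsal comparisons from the fit with group and batch, with bars of 1 SE and filled points for an edgeR adjusted p under 0.05. Fos, Fosb and Junb are filled for WT fear against home cage, Jun, Fosb and Fosl2 for KO fear against WT fear, and Junb for the KO response minus the WT response.

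Within-batch values kept the sign of the pooled ones for all members in the 4 comparisons of groups. The same libraries enter the pooled fit, so the within-batch and pooled values are not independent. For WT fear against WT home cage in B1 they were 2.42 for Fos, 2.02 for Fosb, 1.27 for Fosl2, 0.47 for Jun, 1.42 for Junb and -0.06 for Jund. For KO fear against KO home cage in B3 they were 1.40, 0.52, 0.02, -0.02, 0.54 and -0.07 in the same order of genes. For KO home cage against WT home cage in B2 they were 1.09, 0.42, 0.03, -0.23, 0.72 and 0.12, and none passed.

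**Figure D4:**
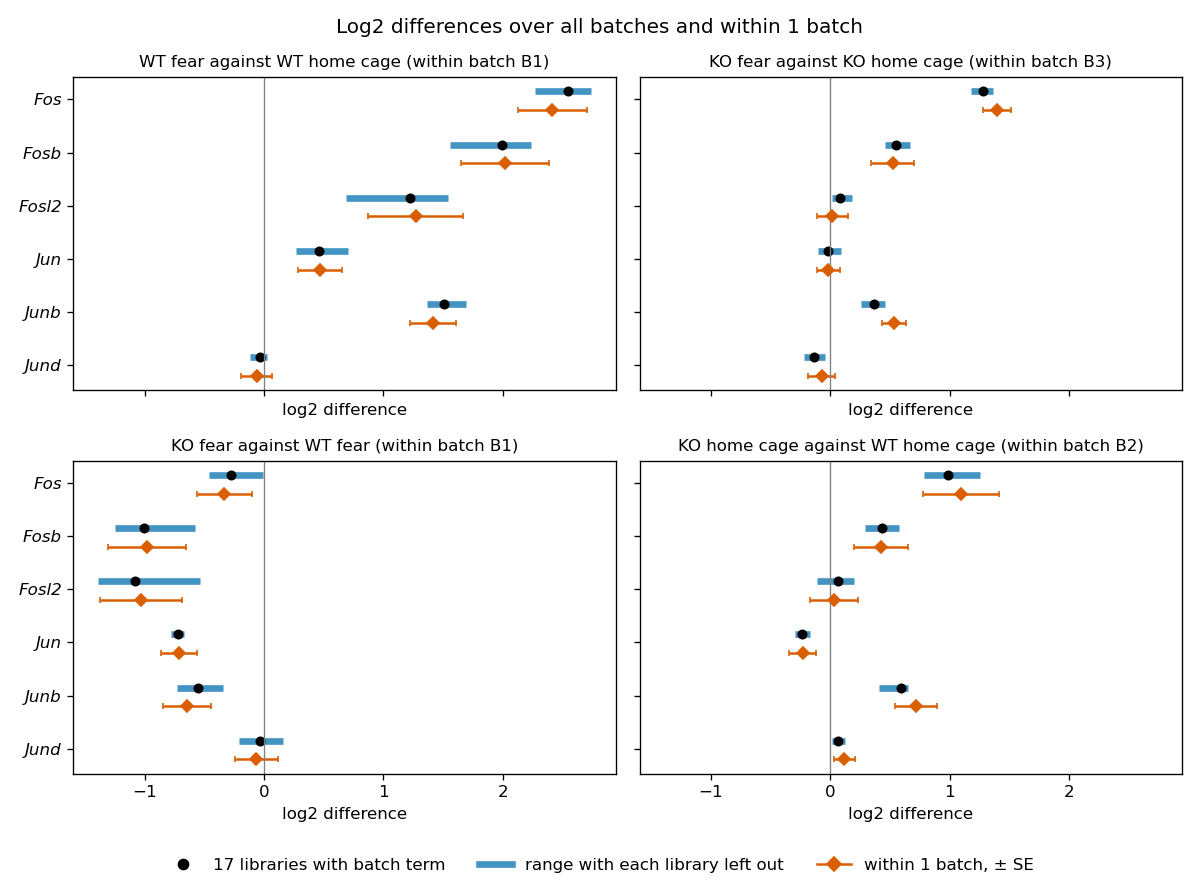
Log2 differences of the 6 genes over all 17 libraries with a batch term (black points), the range when each library is left out (blue bars) and within 1 batch with 1 SE (orange diamonds). The Fos values for WT fear against home cage are 2.54 over all batches and 2.42 within B1.

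Markers of CA1, CA2 and CA3, oligodendrocytes and ependyma differed between WT fear and the groups set against it. In WT fear against WT home cage, 0 of 6 astrocyte, 0 of 6 microglia and 0 of 5 dentate gyrus markers were called. Called lower there were 2 of 6 mural, 1 of 6 thalamus and 1 of 7 choroid plexus markers, where 0.756% of genes were called lower. All 6 thalamus markers were below 0, with a median of -0.82, and 1 of 8 neocortex markers was called higher. In KO fear against WT fear, 2 of 6 astrocyte, 1 of 6 thalamus and 1 of 6 mural markers were called higher, and 0 of 6 microglia markers were called. No marker was called in KO fear against KO home cage or in KO home cage against WT home cage. CA1 pyramidal markers summed to 359 to 902 CPM in KO fear, 626 to 1069 CPM in WT fear, 356 to 895 CPM in KO home cage and 370 to 532 CPM in WT home cage. Of the 5, 4 were called higher in WT fear than in WT home cage and 4 lower in KO fear than in WT fear. Over all genes, 0.871% were called higher in WT fear than in WT home cage and 12.1% lower in KO fear than in WT fear. The KO fear libraries of B1 had 377 and 359 CPM, and those of B3 had 808 and 902 CPM. Fos, Fosb, Fosl2, Jun and Junb were all lower in both B1 libraries of KO fear than in both B3 ones, and Jund was at 80.4 and 119 CPM in B1 and 134 and 119 CPM in B3.

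Oligodendrocyte markers summed to 6433.19 to 10214.48 CPM in KO fear, 3792.47 to 5112.42 CPM in WT fear, 6765.83 to 11498.94 CPM in KO home cage and 6545.77 to 13040.10 CPM in WT home cage, and 7 of 9 were called lower in WT fear than in WT home cage. Ependymal markers summed to 28.5 to 76.6 CPM in KO fear, 7.83 to 9.60 CPM in WT fear, 24.0 to 114 CPM in KO home cage and 39.1 to 106 CPM in WT home cage, with 5 of 7 called lower in WT fear than in WT home cage and 7 of 7 higher in KO fear than in WT fear. Oligodendrocyte markers were called higher in KO fear than in WT fear in 8 of 9. CA2 and CA3 markers summed to 536 to 835 CPM in KO fear, 298 to 597 CPM in WT fear, 562 to 1132 CPM in KO home cage and 730 to 1071 CPM in WT home cage, with 2 of 6 called lower in WT fear than in WT home cage and 4 of 6 higher in KO fear than in WT fear. Choroid plexus markers were called higher in KO fear than in WT fear in 5 of 7. Neuron markers were called in 0 of 7 for WT fear against WT home cage, whereas in KO fear against WT fear 2 of 7 were called lower, with a list median of -0.34. Of the 5 dentate gyrus markers 2 were called lower in KO fear than in WT fear, with a median of -0.50, as were 3 of 8 neocortex markers, with a median of -0.44. Over all genes, 0.756% were called lower in WT fear than in WT home cage. In KO fear against WT fear, 12.1% of genes were called lower and 10.2% higher. With a library left out, the genes called in KO fear against WT fear fell to as few as 1. No marker on these lists was at 0 reads in any group. For the difference between the KO and WT responses, 3 of 5 CA1 markers were called lower, with a median of -1.515. There 4 of 7 ependymal markers were called higher, with a median of 4.30, where 0.479% of genes were called. Also called higher there were 1 of 6 CA2 and CA3, 1 of 7 choroid plexus, 1 of 6 astrocyte and 1 of 6 mural markers. No oligodendrocyte, neuron, dentate gyrus or neocortex marker was called there. The part of these marker differences in the values of the Fos and Jun genes was not tested.

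The genes whose dorsal profile was closest to each member were found by the root-mean-square difference of centred log2 CPM over the 17 libraries, among 14802 other genes. Fos was nearest to Arc (0.37), an effector of synaptic plasticity, Nr4a1 (0.49), a nuclear receptor, and Npas4 (0.58), a neuronal activity-induced factor. Fosb was nearest to Nr4a1 (0.27), Inhbb (0.31) and Egr1 (0.32), and Junb to Egr4 (0.18), Egr1 (0.22) and Nr4a1 (0.23), where Inhbb encodes an activin subunit and the Egr genes encode zinc finger factors. Fosl2 was nearest to Sstr1 (0.17), a somatostatin receptor, Syt17 (0.18) and Cmtm4 (0.23). Jun was nearest to Slc29a4 (0.12), Drd5 (0.12), a dopamine receptor, and Fam84a (0.13), and Jund to Apbb1 (0.08), Tysnd1 (0.08) and Cog8 (0.09). The distance is small for any gene that varies little: 235 genes lay within 0.2 of Jun and 1479 within 0.2 of Jund, against 0 for Fos and Fosb.

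Since the neighbours were picked for their likeness, their own fits are given as a description. In WT fear against WT home cage, Arc rose by 1.98 ± 0.27 (edgeR adjusted p = 0.00211), Nr4a1 by 1.76 ± 0.27 and Egr1 by 1.52 ± 0.23 (both with an edgeR adjusted p of 0.00802). Egr4 rose by 1.51 ± 0.26 (edgeR adjusted p = 0.0186), whereas Npas4 had 0.93 ± 0.38 (edgeR adjusted p = 0.174). Sstr1 rose by 1.33 ± 0.27 (edgeR adjusted p = 0.0330), Syt17 by 1.06 ± 0.25 and Cmtm4 by 0.80 ± 0.19 (edgeR adjusted p = 0.0453 and 0.0454). For KO fear against KO home cage, Arc had 1.16 ± 0.23 (edgeR adjusted p = 0.404) and Egr1 had 0.14 ± 0.22 (edgeR adjusted p = 0.976).

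Other rapidly induced genes were listed apart from the family. In WT fear against WT home cage, 7 of 21 tested rose, where 0.871% of all genes were called higher, and none fell. The list median was 0.66 against -0.02 over all genes. Egr2 had the largest estimate at 4.68 ± 0.49 (edgeR adjusted p = 0.000427), beside Arc, Egr1, Egr4 and Nr4a1. None of the 21 passed in KO fear against KO home cage, where 0% of genes did. The list median there was 0.23, and Egr2 had 1.93 ± 0.38 (edgeR adjusted p = 0.404). Between KO fear and WT fear 3 of 21 fell, near the 12.1% of all genes called lower there, with Egr1 at -0.90 ± 0.24, Egr3 at -0.66 ± 0.14 and Egr4 at -0.83 ± 0.27 (edgeR adjusted p = 0.0212, 0.0155 and 0.0363). For the difference between the KO and WT responses 2 of 21 passed, where 0.479% of all genes did. These were Egr1 and Egr2, at -1.38 ± 0.27 and -2.75 ± 0.53 (edgeR adjusted p = 0.0420 and 0.0406). In KO home cage against WT home cage 0 of 21 passed, with a median of 0.28.

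Genes of the signalling and coactivator route to AP-1 formed another list. In WT fear against WT home cage 1 of 26 rose, where 0.871% of all genes were called higher, and the median was 0.12. It was Srf, the serum response factor, by 0.47 ± 0.11 (edgeR adjusted p = 0.0454). Between KO fear and WT fear 6 of 26 fell and none rose, with a median of -0.21 against 0.01 over all genes, in a comparison where 22.3% of all genes were called and 12.1% were called lower. Among them, the acetyltransferase genes Ep300 and Crebbp were at -0.75 ± 0.20 and -0.70 ± 0.18 (edgeR adjusted p = 0.0197 and 0.0188). Mef2d, a calcium-regulated factor, was at -0.70 ± 0.16 (edgeR adjusted p = 0.0162), Elk4, a partner of SRF, at -0.71 ± 0.23 (edgeR adjusted p = 0.0403) and the kinase gene Rps6ka2 at -0.60 ± 0.19 (edgeR adjusted p = 0.0330). None of the 26 passed in either other dorsal comparison of groups or for the difference between the responses.

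Other basic leucine zipper genes, which can pair with AP-1 subunits or compete with them, formed a list of their own. Of 14 tested, 0 passed in WT fear against WT home cage, where 1.63% of all genes did, with a list median of 0.12. Set against WT fear, KO fear had 2 of 14 lower, near the 12.1% of all genes called lower there: Atf7 by 0.49 (SE 0.16, edgeR adjusted p = 0.0409) and Nfe2l1 by 0.39 (SE 0.10, edgeR adjusted p = 0.0208). The list of genes known as AP-1 targets had 1 of 11 called in WT fear against WT home cage, where 1.63% of all genes were called. It was Vim, an intermediate filament gene of glia and vessels, at -1.13 ± 0.27 (edgeR adjusted p = 0.0454). Set against WT fear, KO fear had 1 of 11 higher and 1 of 11 lower, where 10.2% and 12.1% of all genes were called so. The list median there was 0.09. Vim rose by 1.25 ± 0.26 (edgeR adjusted p = 0.0155), while Calb1, a calcium buffer of CA1 and dentate neurons, fell by 0.66 (SE 0.19, edgeR adjusted p = 0.0240).

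In whole hippocampus at baseline, all 6 members were lower in both KO libraries than in both WT libraries, and none of the 6 passed the test, where 0.0388% of the 15453 genes tested were called. Lower values without overlap occurred in 21.9% of genes with 2 libraries a group. Fos was at 17.2 and 16.5 CPM in KO, 20.7 and 53.1 CPM in the Het libraries and 23.1 and 25.0 CPM in WT, and KO differed from WT by -0.51, with an interval of -1.27 to 0.25. Junb was at 57.7 and 56.0 CPM in KO, 68.3 and 95.6 CPM in the Het libraries and 74.0 and 77.5 CPM in WT, and KO differed from WT by -0.41, with an interval of -0.70 to -0.13 (edgeR adjusted p = 0.802). Fosb was at 9.62 and 10.2 CPM in KO, 7.08 and 19.0 CPM in the Het libraries and 11.6 and 11.1 CPM in WT. Fosb, Fosl2, Jun and Jund differed between KO and WT by -0.20, -0.15, -0.15 and -0.14. The median was -0.17 over the members and 0.0048 over all genes.

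Het library 2 stood apart from Het library 1 in the Fos and Jun genes. Fosl2 was at 63.4 and 64.7 CPM in KO, 57.3 and 37.6 CPM in the Het libraries and 71.8 and 70.0 CPM in WT. Jun was at 111 and 118 CPM in KO, 123 and 80.2 CPM in the Het libraries and 130.4 and 124 CPM in WT, and Jund was at 119 and 115 CPM in KO, 145 and 134 CPM in the Het libraries and 124 and 133 CPM in WT. Library 2 of Het thus had the highest Fos, Fosb and Junb and the lowest Fosl2 and Jun of the 6 whole libraries. Its neocortex markers, 8 of 8 with reads, summed to 493.79 CPM, against 273.23 CPM in Het library 1 and 224.40 to 233.99 CPM in KO and WT, and its CA1 markers summed to 506.65 CPM, against 703.52 to 791.06 CPM in the other libraries. The part of these markers in the Fos and Jun values was not tested.

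Het and WT differed by 0.63 ± 0.38 for Fos, 0.21 ± 0.39 for Fosb, -0.59 ± 0.17 for Fosl2, -0.33 ± 0.18 for Jun, 0.12 ± 0.14 for Junb and 0.12 ± 0.06 for Jund, and 0 of 6 members passed where 0% of genes did. Before adjustment the edgeR p was under 0.05 for 2145 genes. DESeq2 called 142 genes, with no member among them. Without Het library 2 the differences of Fos, Fosb and Junb were -0.22, -0.68 and -0.15. Without Het library 1, where the lone Het library was assumed to vary like the other groups, 5 members passed and 1424 genes were called. In KO against Het 0 of 6 members passed, where 0.0841% of genes did, and Fos differed by -1.14 ± 0.38, Junb by -0.53 ± 0.14 and Jund by -0.26 ± 0.06. Without Het library 1, 5 members passed there too and 1211 genes were called, and without Het library 2 the Fos difference was -0.30.

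**Figure D5:**
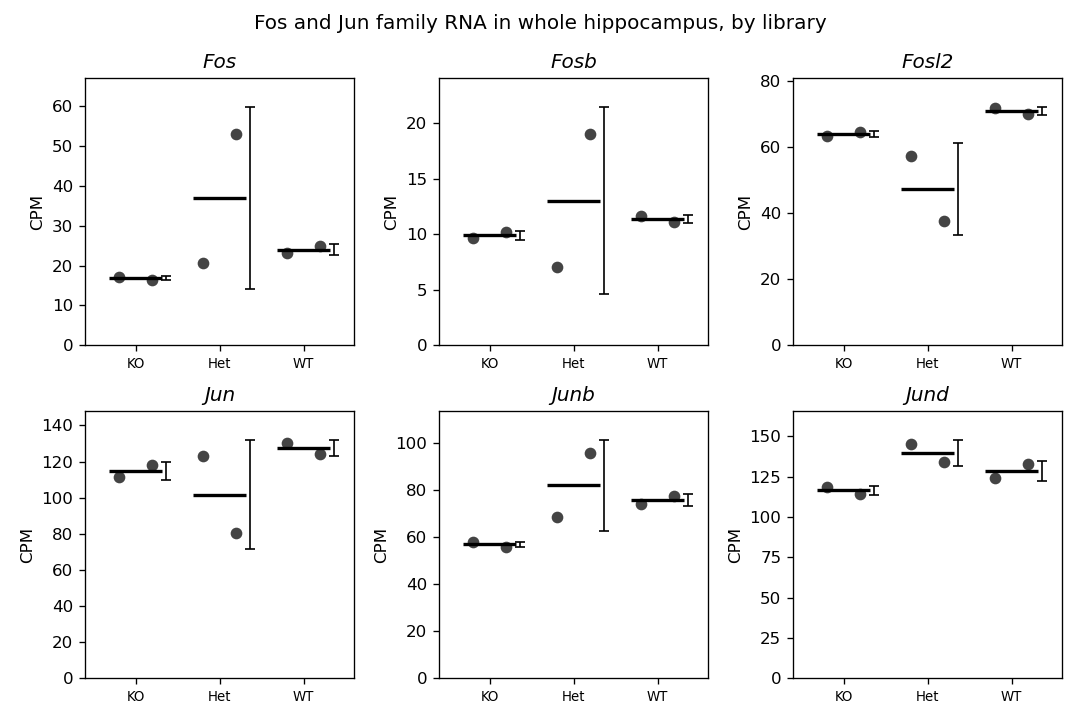
CPM of the 6 genes in the 6 whole hippocampus libraries, 1 point per library, with group means and bars of 1 SD. The Het points lie far apart for Fos, at 20.7 and 53.1 CPM, while the KO points lie at 17.2 and 16.5 CPM and the WT points at 23.1 and 25.0 CPM.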

How the data were processed

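Poly(A) RNA from mouse hippocampus was sequenced in 23 libraries made from 300 ng of total RNA each with a kit that does not mark strand. The authors deposited raw counts per gene symbol in 2 tables, which were used as deposited; their normalized tables were not used. STAR, SAMtools 1.1, HTSeq 0.9.1, DESeq2, limma and mm10 are named, with no role or order, per the submitters' processing notes, and the annotation release was not given in the sources used here. In the dorsal counts, 26 symbols read as dates.

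Each table was tested with edgeR 4.0.16 (R 4.3.3, limma 3.58.1): TMM scaling, filterByExpr (minimum count 10, minimum total 15), a quasi-likelihood F test, two-sided, with Benjamini-Hochberg adjustment over all genes that passed the filter and a threshold of 0.05. The whole model had genotype (3 residual degrees of freedom); the dorsal model had group and batch (11). A standard error is the log2 difference divided by the square root of F, and intervals use 1.96 of them. That multiplier does not allow for the few degrees of freedom, so the intervals are narrower than the F test implies. The statistics were tested on simulated data. DESeq2 1.42.0, other size factors, no filter, no batch term, a replicate block, the compared groups alone, single batches and each library left out were alternatives. Neighbours used log2 CPM with a prior count of 2.

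Named genes were the 6 members, 3 nearest genes for each, up to 5 called genes per list and comparison, and overlapping genes. The members and lists were chosen with earlier results of these data known. Coordinates and exonic lengths are from GENCODE M21, promoters from RefSeq GRCm38.p6. Libraries of a group differed by a chi-square per gene of 5.98 to 61.5, so each counted as a replicate. Labels do not say that libraries came from separate mice, so p-values measure the spread between these samples. Reads carry no molecular identifiers.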

Additional observations from a re-analysis of the deposited data

Results flagged for a closer look

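Fosb in WT home-cage library 3, a B2 library, was at 5.33 CPM, apart from the other 4 WT home-cage libraries at 3.48 to 3.89 CPM. The gap to its nearest neighbour was large for the range of the group. It was the 1 such value among 18 groups of member values examined, and chance gives about 1 in 20.

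The KO response of Junb to conditioning minus the WT response was -1.15 (log2) and passed the test of that difference (edgeR adjusted p = 0.0420). It passed in 4 of 17 fits with a library left out, and did not pass without a batch term (edgeR adjusted p = 0.255) or with the replicate block (edgeR adjusted p = 0.0747). Junb was higher in fear than in home cage for every WT pair of libraries, while the KO groups overlapped.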

How the results depend on the processing

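Of 906 member estimates under the alternatives, 793 kept both direction and side of the threshold, 53 newly passed, 40 no longer passed and 20 changed sign, none of these passing. In WT fear against WT home cage the members called were 5 by DESeq2, 1 with the compared groups alone, 1 within B1 and 2 to 5 with a library left out. For KO fear against KO home cage they were 1 by DESeq2, 1 within B3 and 0 with any library left out. In KO home cage against WT home cage they were 0 to 2, and in whole Het against WT and whole KO against Het 0 to 5, with a library left out. In KO fear against WT fear they were 0 without a batch term and 0 to 4 with a library left out. For the difference between the responses they were 4 by DESeq2, 2 with median-ratio size factors, 4 without a filter, 0 without a batch term and 0 to 4 with a library left out.

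Replicate numbers gave no clear sign of pairing in dorsal hippocampus. Same-numbered deviations there correlated at -0.31 to 0.38, over 0.1 in 9 of 22 pairs, against -0.56 to 0.47 for other numbers. Of the 17 dorsal libraries, 4 were closest to their own number. In whole hippocampus same-numbered deviations correlated at -0.68 to 0.39, over 0.1 in 2 of 6 pairs. With 2 libraries a group the deviations there mirror each other, so those values cannot show whether samples were paired. With the replicate block, members called were 0 in KO fear against WT fear and 0 for the difference between the responses, and genes called were 15 in WT fear against WT home cage and 1 in KO fear against WT fear. Fosl2 and Jund in KO home cage against WT home cage turned to -0.0050 and -0.042 with the block. Without a batch term, Fos and Jund in KO fear against WT fear turned to 0.16 and 0.11. With a library left out, estimates whose sign changed ran as follows. In whole Het against WT, Fos ran from -0.22 to 1.14, Fosb from -0.68 to 0.74 and Junb from -0.15 to 0.33. In whole KO against Het, Fosb ran from -0.94 to 0.48 and Jun from -0.098 to 0.52. Jund ran from -0.11 to 0.027 in WT fear against WT home cage, from -0.21 to 0.16 in KO fear against WT fear and from -0.22 to 0.036 for the difference between the responses. Jun ran from -0.10 to 0.092 in KO fear against KO home cage, and Fosl2 from -0.11 to 0.20 in KO home cage against WT home cage. The cause was not tested.

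Genes called over all genes moved by more than 1.5 times for WT fear against WT home cage (241 as reported, 938 by DESeq2, 712 without a batch term, 528 without a filter, 19 with the compared groups alone, 5 within B1, 6 to 829 with a library left out), for KO home cage against WT home cage (1 as reported, 2 by DESeq2, 2 without a filter, 2 without a batch term, 1 to 585 with a library left out), for KO fear against WT fear (3298 as reported, 1544 without a batch term, 1 to 4610) and for the difference between the responses (71 as reported, 907 by DESeq2, 130 with median-ratio size factors, 400 without a filter, 0 without a batch term, 0 with the block, 0 to 1007). In whole hippocampus DESeq2 called 19 genes in KO against WT (6 as reported), 142 in Het against WT (0 as reported) and 135 in KO against Het (13 as reported), and with a library left out Het against WT ran from 0 to 1424 and KO against Het from 6 to 1211. WT fear had the shallowest libraries, which limits the precision of its low genes. Fosb rested on 49 to 200 reads in WT fear, 31 to 94 in WT home cage and 45 to 245 in KO fear. Fos in WT home cage rested on 36 to 136 reads.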
